A study of Homo sapiens with 4 samples.

Results

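The CDK inhibitors described here are 6 genes: CDKN1A, CDKN1B, CDKN1C, CDKN2C, CDKN2D and CDKN3. They were chosen by gene symbol, and all 6 were found among the 25122 genes of the deposited table. Their mRNA was counted in 4 sequencing libraries made from Jurkat, a cell line from a human T-cell acute lymphoblastic leukaemia. In 2 libraries the cells carried a control hairpin (shcontrol) and in 2 a hairpin against BDH1 (shBDH1), a mitochondrial enzyme that interconverts ketone bodies. All 4 libraries are labelled wild type, and no time after transduction, number of hairpins or clonal origin is given. The study asks what lies downstream of BDH1 and names MYC. Cells with restored MYC were not analysed here.

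Progression through the cell cycle is driven by cyclin-dependent kinases (CDKs), each active only with a cyclin partner. Inhibitors of the Cip/Kip family, p21 (CDKN1A), p27 (CDKN1B) and p57 (CDKN1C), bind cyclin-CDK complexes and block CDK2 above all. Those of the INK4 family, among them p18 (CDKN2C) and p19 (CDKN2D), bind only CDK4 and CDK6 and keep D-type cyclins away from them. CDKN3 encodes KAP, a phosphatase that removes the activating phosphate of CDK2, so it acts on the same kinases in another way. In developing thymocytes p27 and p18 restrain division, and p21 is best known for arresting cells in G1.

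The promoters of these genes differ in sequence, and 5 short stretches are shown. All but that of CDKN3 hold letters of a factor whose own mRNA is described further on. That of CDKN3 holds the cell cycle homology region instead. Promoters of 5 of the 6 genes were matched in RefSeq (GRCh38.p14; 250 bases before to 50 after the start), with 3 starts for CDKN2C; CDKN1C had no entry. Sequences are given 5′ to 3′ on the gene's strand, and capitals mark the match.
CDKN1A: tgaggcgggcccGGGCGGggcggttgtata
CDKN2D: tgcaggccctgtGGGCGGaacgccgtaagg
CDKN1B: gatctcctcctcTGTTTAaatagactcgcc
CDKN2C: ggagagcgggaGGCGGGAAtgagggcgcgg
CDKN3: tcccgcgcgtctTTCAAAggtcttctagga
The first and second hold the GC box bound by SP1 and SP3, at -45 to -40 from the start of CDKN1A (chr6:36678657-36678686, plus strand) and at -156 to -151 from that of CDKN2D (chr19:10569118-10569147, minus strand). CDKN1B holds TGTTTA, the reverse complement of the FOXO core TAAACA, at -32 to -27 (chr12:12717324-12717353, plus strand). CDKN2C holds the E2F letters GGCGGGAA at -132 to -125 (chr1:50968563-50968592, plus strand). CDKN3 holds TTCAAA, the reverse complement of the cell cycle homology region TTTGAA, at -170 to -165 (chr14:54396825-54396854, plus strand).

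Over the 7 promoters of the 5 matched genes, GGGCGG or its reverse complement CCGCCC stood in 5, belonging to all of these genes but CDKN3, and in 45.0% of all 35116 promoters. TAAACA on either strand stood in 2 of the 7, in CDKN1B and CDKN2C, and in 12.3% of all promoters. GGCGGGAA on either strand was found in 1 of the 7, of CDKN2C, and in 3.16% of all, and TTTGAA on either strand in 1 of the 7, that of CDKN3, and in 15.2% of all. The E-box CACGTG, the letters that MYC with its partner MAX binds, stood in 2 of the 7, both of CDKN2C, and in 7.26% of all promoters. The CRE half-site TGACG on either strand stood in 4 of the 7, of CDKN1B and CDKN2C, and in 24.6% of all. In these windows no member held the EGR letters GCGGGGGCG on either strand, found in 5.07% of all. GC boxes overlap one another in CDKN1A and CDKN2C, and a match is only a match of letters.

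The 4 libraries held 28681511 to 29453383 reads in genes. BDH1 mRNA was 1725 and 1911 normalized read counts in shcontrol and 1221 and 1412 in shBDH1, so its mean fell by 27.6% (limma adjusted p = 1.5e-05). All 12 T cell markers were detected in every library, and 7 of them rose and 1 fell, with sums of 49264 and 49402 normalized read counts in shcontrol and 59399 and 59766 in shBDH1. Markers of other lineages also moved: 3 B cell, 6 NK, 2 myeloid and 3 fibroblast or epithelial genes passed the filter, and 2, 4, 1 and 2 of them rose, with none lower. The background to these marker counts is large, since limma called 20.3% of 19301 genes higher and 20.8% lower. Near the mean of a CDK inhibitor, calls either way made up 30.5% (CDKN1C) to 65.2% (CDKN1B) of genes. No such share is given here for genes with means like those of the markers. The summed B cell markers were 263 to 286 normalized read counts in shcontrol and 785 to 803 in shBDH1, and the summed NK markers 194 to 220 and 781 to 807. The myeloid marker that rose was CD33, from a mean of 10.8 to one of 50.7 normalized read counts (limma adjusted p = 0.0019). CSF1R, also myeloid, did not pass the test (log2 fold change 0.13). Among myeloid genes below the filter, CD14 stayed at or under 6.13 and LYZ at or under 1.02 in every library. ITGAM, below it too, stayed at or under 5.90 except in replicate 2 of shBDH1 (21.1). The part of the lineage markers in the results was not tested. In a bulk library, fewer cells with an mRNA and less of it per cell cannot be told apart.

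Of the 6 CDK inhibitors, 2 rose, CDKN1A and CDKN2D, and 2 fell, CDKN2C and CDKN3, in shBDH1 relative to shcontrol. CDKN1B and CDKN1C did not pass the test. The 4 calls of 6 stand beside a background of 41.1% of the 19301 genes tested, 20.3% higher and 20.8% lower (limma, Benjamini-Hochberg adjusted p under 0.05). For 5 of the 6 both libraries of 1 group lay above both of the other, as for 69.0% of all genes tested, and neither count sets the members apart from other genes. The median log2 fold change was -0.01 over the 6 and -0.01 over all genes tested. All 6 passed the filter on low values, a mean of at least 10 normalized read counts.

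**Figure D1:**
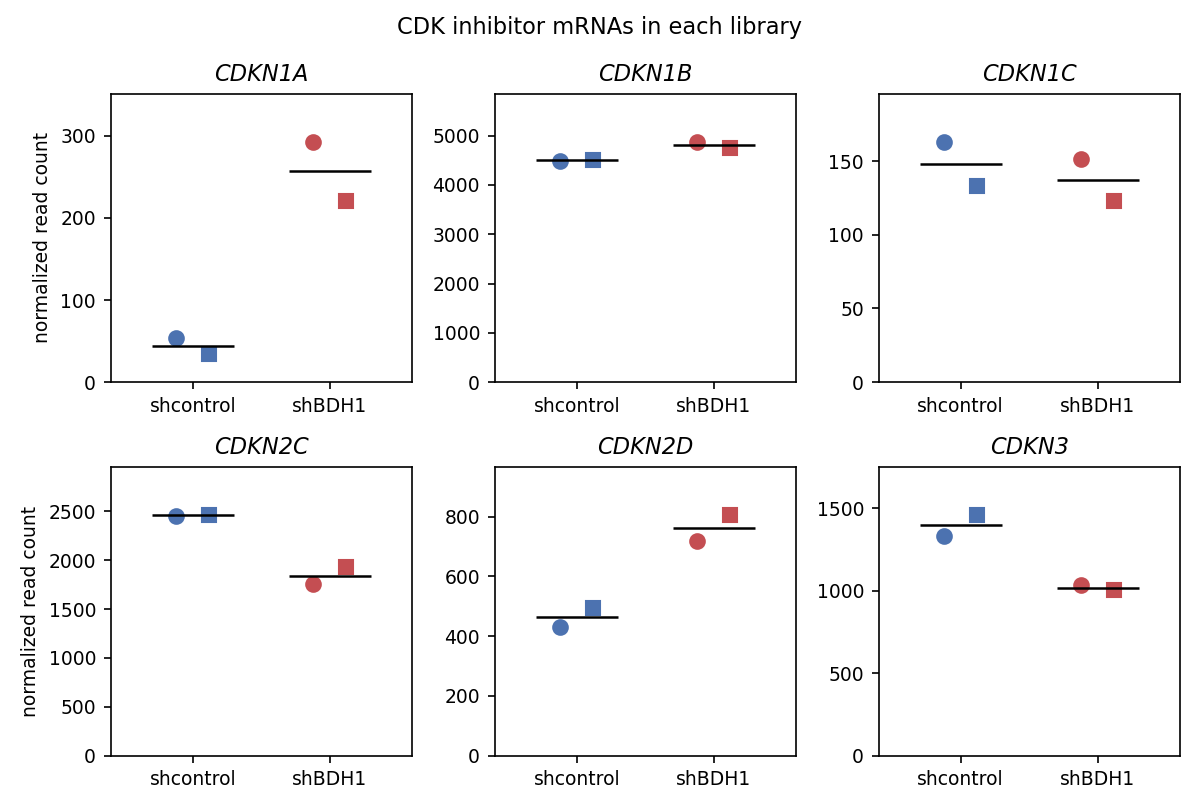
Normalized read counts (vertical axes from 0, each with its own scale) of the 6 CDK inhibitors in the 4 libraries. Circles are replicate 1, squares replicate 2, and bars the mean of the 2 libraries; CDKN1A and CDKN2D lie higher in both shBDH1 libraries, CDKN2C and CDKN3 lower, and CDKN1C overlaps.

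CDKN1A (ENSG00000124762; chromosome 6, 36676460 to 36687339, hg38), which encodes p21, was 53.4 and 34.7 normalized read counts in shcontrol and 293 and 220 in shBDH1. Both shBDH1 libraries were thus above both shcontrol libraries, and by far more than the libraries of a group differed. The means were 44.1 ± 13.2 and 257 ± 51.4 (SD, n = 2 each). The log2 fold change was 2.53 (SE 0.27, limma adjusted p = 9.1e-09), a 5.78-fold rise with a 95% interval of 3.94 to 8.48. Of all genes that rose, 124 rose by more. Among the 3366 genes with a mean within 2-fold of that of CDKN1A, 17 rose by more and 31.3% changed in either direction.

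The rise of CDKN1A started from very few reads. The values rest on 52 and 34 reads in shcontrol, with exact Poisson 95% intervals of 38.8 to 68.2 and 23.5 to 47.5. In shBDH1 they rest on 298 and 219 reads, with intervals of 265 to 334 and 191 to 250. These intervals cover counting error only. Leaving out each library in turn gave log2 fold changes from 2.23 to 2.83. Each such fit has a group of 1 library, which is assumed to vary like the libraries of the other group. In these libraries low genes were detected more often in shBDH1 in general: 1601 and 1644 genes were listed at 0 in shcontrol and 970 and 1067 in shBDH1.

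CDKN1B (ENSG00000111276; chromosome 12, 12715058 to 12722371), which encodes p27, was 4487 and 4510 normalized read counts in shcontrol and 4877 and 4753 in shBDH1. The groups did not overlap, but lay close. The log2 fold change was 0.10 (SE 0.05, limma adjusted p = 0.10), a ratio of 1.07 with a 95% interval of 1.00 to 1.15. The call depended on the scaling, with a limma adjusted p of 0.040 when reads were scaled by library totals and 0.045 by upper quartiles.

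CDKN1C (ENSG00000129757; chromosome 11, 2883213 to 2885773), which encodes p57 and is expressed from the maternal allele in many tissues, was 163 and 133 normalized read counts in shcontrol and 151 and 123 in shBDH1. The groups overlapped. The log2 fold change was -0.11 (SE 0.22, limma adjusted p = 0.73), a ratio of 0.926 with a 95% interval of 0.674 to 1.27. At 122 to 159 reads per library this interval also holds the log2 fold changes of CDKN2C and CDKN3 given further on. The sign turned without replicate 1 of shcontrol (0.04) and without replicate 2 of shBDH1 (0.04).

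The Cip/Kip genes thus did not move as one. CDKN1A and CDKN1C had like means over all 4 libraries, 150 and 143 normalized read counts. In shcontrol, however, CDKN1A rested on fewer reads (52 and 34) than CDKN1C (159 and 130). The SEs of their log2 fold changes were 0.27 and 0.22. Their 95% intervals, 1.98 to 3.08 and -0.57 to 0.35 on the log2 scale, do not overlap. The ratio of CDKN1A to CDKN1B, as levels per length, was 0.0110 and 0.00710 in shcontrol and 0.0554 and 0.0427 in shBDH1.

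CDKN2C (ENSG00000123080; chromosome 1, 50960745 to 50974633), which encodes the INK4 inhibitor p18, was 2456 and 2461 normalized read counts in shcontrol and 1751 and 1926 in shBDH1. Both shBDH1 libraries were below both shcontrol libraries. The mean was 2459 ± 3.51 in shcontrol and 1839 ± 123 in shBDH1 (SD, n = 2 each), which is lower by 25.2%. CDKN2C fell by 0.42 on the log2 scale (SE 0.06, limma adjusted p = 4.6e-06). Among the 5545 genes with a mean within 2-fold of its own, 573 fell by more and 59.0% changed in either direction.

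CDKN2D (ENSG00000129355; chromosome 19, 10566462 to 10569059), which encodes p19, was 432 and 494 normalized read counts in shcontrol and 719 and 806 in shBDH1. Here both shBDH1 libraries were the higher ones. The mean was 463 ± 43.4 in shcontrol and 762 ± 60.8 in shBDH1 (SD, n = 2 each). CDKN2D rose by 0.72 on the log2 scale (SE 0.11, limma adjusted p = 5.2e-06), or 1.65-fold with a 95% interval of 1.41 to 1.93. Among the 4911 genes with a mean within 2-fold of its own, 250 rose by more and 46.6% changed in either direction.

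The INK4 pair therefore moved in opposite directions. The ratio of CDKN2D to CDKN2C, as levels per length, was 0.389 and 0.443 in shcontrol and 0.907 and 0.923 in shBDH1. An exact permutation test of 2 against 2 libraries cannot go below p = 0.333, so no p is given for such ratios. The summed level per length of both genes, 34.9 and 36.4 RPKM (reads per kilobase of exon, scaled to the reads in genes of the library) in shcontrol, was 34.8 and 38.6 RPKM in shBDH1, so the groups overlapped. Against the summed level of their target kinases CDK4 and CDK6 this was a ratio of 0.323 and 0.345 in shcontrol and 0.291 and 0.348 in shBDH1, again overlapping.

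CDKN3 (ENSG00000100526; chromosome 14, 54396849 to 54420218), which encodes the phosphatase KAP and is transcribed mostly in G2 and mitosis, was 1334 and 1458 normalized read counts in shcontrol and 1032 and 1007 in shBDH1. Both shBDH1 libraries were below both shcontrol libraries. The mean was 1396 ± 88.1 in shcontrol and 1019 ± 17.9 in shBDH1 (SD, n = 2 each). CDKN3 fell by 0.45 on the log2 scale (SE 0.08, limma adjusted p = 3.4e-05), a ratio of 0.731 with a 95% interval of 0.653 to 0.819. Among the 6000 genes with a mean within 2-fold of its own, 591 fell by more and 54.4% changed in either direction.

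**Figure D2:**
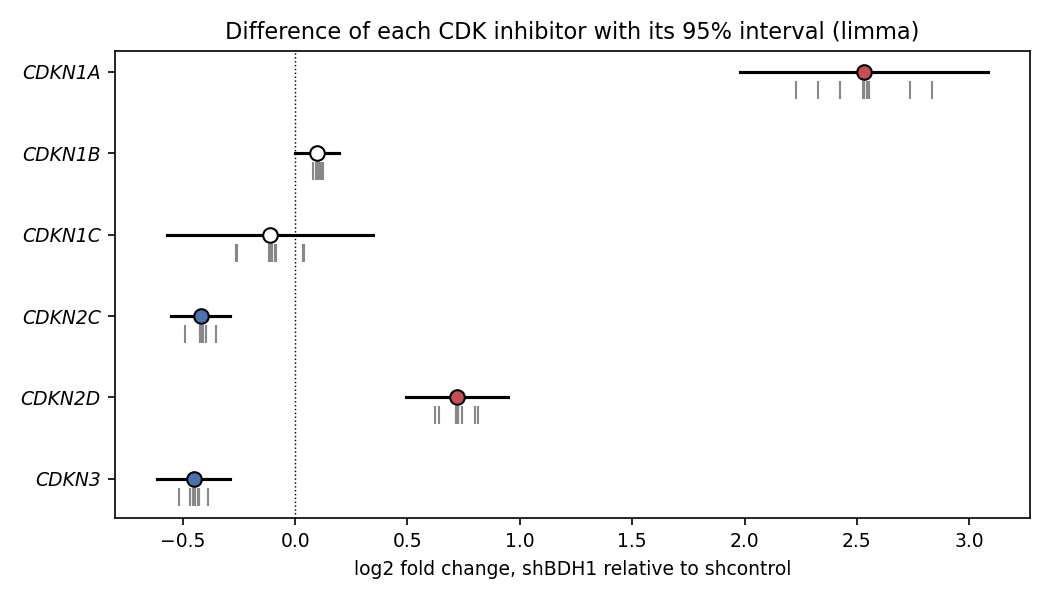
Log2 fold change of each CDK inhibitor in shBDH1 relative to shcontrol (horizontal axis), with the limma 95% interval as a line; red circles passed the test higher, blue ones lower, and white ones did not pass. Grey ticks are the values under the 15 other settings, which for CDKN1A span 2.23 to 2.83 and for CDKN1C lie on both sides of 0.

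On the RPKM scale, which allows genes to be compared, CDKN1B had the highest level in both groups. In shcontrol the order was CDKN1B at 54.4 ± 0.221, CDKN3 at 25.8 ± 1.64, CDKN2C at 25.2 ± 0.0469, CDKN2D at 10.5 ± 0.985, CDKN1C at 2.03 ± 0.294 and CDKN1A at 0.491 ± 0.147 (SD, n = 2 each). CDKN3 and CDKN2C did not differ beyond their spread there. In shBDH1 it was CDKN1B at 59.2 ± 1.07, CDKN3 at 19.2 ± 0.333, CDKN2C at 19.1 ± 1.29, CDKN2D at 17.5 ± 1.40, CDKN1A at 2.91 ± 0.581 and CDKN1C at 1.91 ± 0.282 (SD, n = 2 each). There the libraries of CDKN2C (18.2 and 20.1) overlapped those of CDKN3 (19.4 and 18.9) and of CDKN2D (16.5 and 18.5), while both CDKN3 libraries stood above both of CDKN2D. Likewise CDKN1A (3.32 and 2.50) stood above CDKN1C (2.11 and 1.71). Even after its rise, then, CDKN1A mRNA was far below that of CDKN1B. With the longest single transcript as the length, CDKN3 stood apart from CDKN2C, at 44.3 against 28.8 in shcontrol and 32.9 against 21.9 in shBDH1.

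The sum of the 6 levels per length was 116.6 and 120.1 in shcontrol and 119.5 and 120.1 in shBDH1, so the groups overlapped while the makeup differed. CDKN1B made up 45.9% ± 0.766 of the sum in shcontrol and 49.4% ± 1.07 in shBDH1, and CDKN2D 8.83% ± 0.649 and 14.6% ± 1.12 (SD, n = 2 each). The share of CDKN2C was 21.3% ± 0.402 and 16.0% ± 1.02, that of CDKN3 21.8% ± 0.935 and 16.0% ± 0.335 (SD, n = 2 each). CDKN1A held 0.510% and 0.322% in shcontrol and 2.77% and 2.08% in shBDH1. CDKN1C held 1.92% and 1.52% in shcontrol and 1.77% and 1.42% in shBDH1, which overlap.

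**Figure D3:**
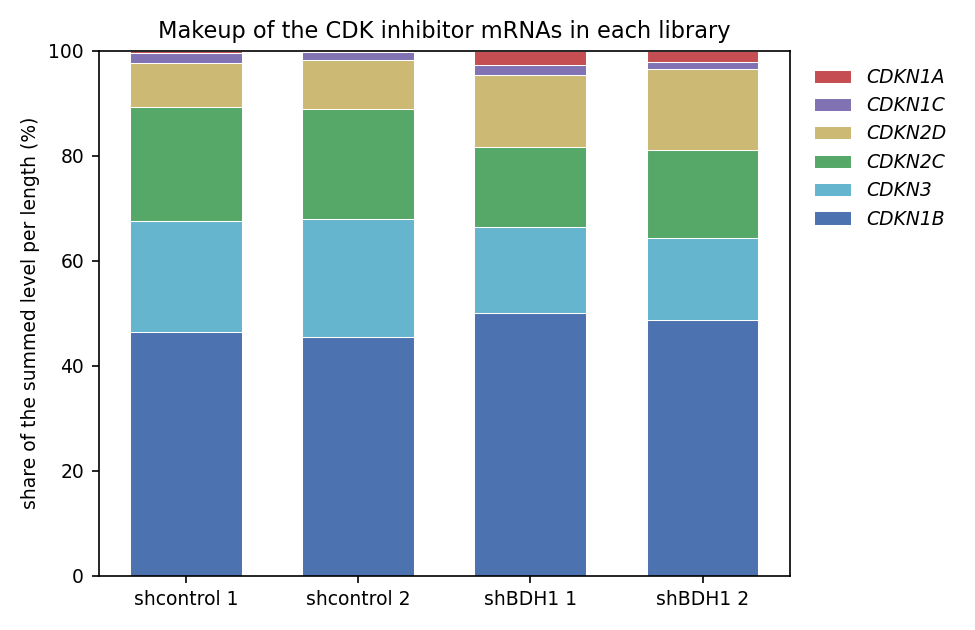
Share of each CDK inhibitor in the summed level per length (vertical axis, percent) in each of the 4 libraries, stacked to 100%. CDKN1B is the largest share in every library, from 45.4% to 50.1%, and the segments of CDKN2D and CDKN1A are wider in both shBDH1 libraries.

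The genes around the inhibitors in their pathway were read from 6 lists. Of 93 distinct list genes tested, 30 rose and 32 fell, and some genes stand in more than 1 list. These calls make up 66.7% of the list genes, beside 41.1% of all genes tested, 20.3% higher and 20.8% lower. Among genes with a mean within 2-fold of a member's, this share ran from 30.5% for CDKN1C to 65.2% for CDKN1B. The list genes differ widely in mean, so no single such share is their background. Of the 12 CDKs and cyclins that the inhibitors bind, 5 rose and 4 fell, with a median log2 fold change of 0.07. CDK4, a kinase that p18 and p19 bind, fell from 5945 ± 85.5 to 4030 ± 171 normalized read counts, while its sister kinase CDK6 rose from 15513 ± 384 to 25269 ± 1504 (SD, n = 2 each). The log2 fold changes were -0.56 for CDK4 (SE 0.05, limma adjusted p = 1.3e-10) and 0.70 for CDK6 (SE 0.04, limma adjusted p = 2.8e-15). CCNB1 and CCNB2, the mitotic B-type cyclins, fell by 0.40 and 0.64 on the log2 scale. CDK2, the main target of p21 and p27, did not pass the test (0.08, limma adjusted p = 0.24), and the ratio of summed Cip/Kip mRNA to CDK2 mRNA per length was 1.58 and 1.67 in shcontrol and 1.79 and 1.62 in shBDH1, which overlap.

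Other regulators of CDK phosphorylation were split. Of the 8 genes of the CDK-activating kinase, the CDC25 phosphatases and the WEE kinases, 3 rose and 4 fell, with a median of 0.03. The shares over all genes tested were 20.3% higher and 20.8% lower. CDC25A, which removes inhibitory phosphates from CDK2, rose by 0.57 on the log2 scale, and WEE1, which adds such a phosphate, by 0.48. CDK7, the catalytic subunit of the CDK-activating kinase, had a log2 fold change of -0.51 and its cyclin partner CCNH one of 0.22, both past the test. The 4 that fell became 1 without replicate 1 of shcontrol and 2 without replicate 1 of shBDH1.

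A list of 13 genes held subunits of ubiquitin ligases that turn over p21, p27 and p57, with the clamp protein PCNA that recruits one of them. Of these 4 rose and 4 fell, with a median of -0.02, beside 20.3% and 20.8% of all genes tested. CUL1, the scaffold of the ligase that degrades p27, rose by 0.65 on the log2 scale. CKS1B, its cofactor for p27, fell by 0.30, and DDB1 and DTL, parts of the ligase that degrades p21, fell by 0.35 and 0.24. The 4 that rose became 2 without replicate 1 of shcontrol. The data hold no protein levels.

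Of 18 transcription factors known to act on CDKN1A or CDKN1B, 9 rose and 2 fell, with a median of 0.17. Over all genes tested 20.3% rose and 20.8% fell. MYC, which represses CDKN1A through ZBTB17 (Miz-1), fell from 14744 ± 85.6 to 7411 ± 60.0 normalized read counts (SD, n = 2 each; limma adjusted p = 2.7e-18). EGR1, an immediate early factor, rose by 1.39 on the log2 scale, KLF2, a quiescence factor of T cells, by 1.06, and RUNX1 by 0.29. The other that fell was ZBTB17, with a log2 fold change of -0.42. FOXO1 was at 0.75 and passed the test, while FOXO3 (-0.07) did not. Of the factors that bind GC boxes, SP3 was at 0.14 and passed, and SP1 (-0.07) did not. These 5 factors fall outside the rule for named genes and were chosen after their values were seen.

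Downstream of the CDKs, 3 of 13 genes of the RB family and E2F factors rose and 5 fell, with a median of -0.10. RB1, the protein that CDK4 and CDK6 phosphorylate, rose by 0.74 on the log2 scale, while E2F2 fell by 0.76, and TFDP2 and TFDP1, the partners of E2F factors, fell by 0.72 and 0.32. Of 37 targets of DREAM, the repressor complex, and of E2F, 7 rose and 16 fell, with a median of -0.05. Beside both lists, 20.3% of all genes tested rose and 20.8% fell. MYBL2 fell by 1.34 on the log2 scale and FOXM1, which drives mitotic genes, by 0.99, while CENPF fell by 0.45 and TPX2 by 0.41. These 4 were named for the smallest p of their list. BUB1, TOP2A, MCM2, MCM4, CDC6, PCNA and TYMS rose, from 0.11 for MCM2 to 0.31 for CDC6. The other 14 targets did not pass the test. The 7 that rose became 3 without replicate 1 of shcontrol.

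**Figure D4:**
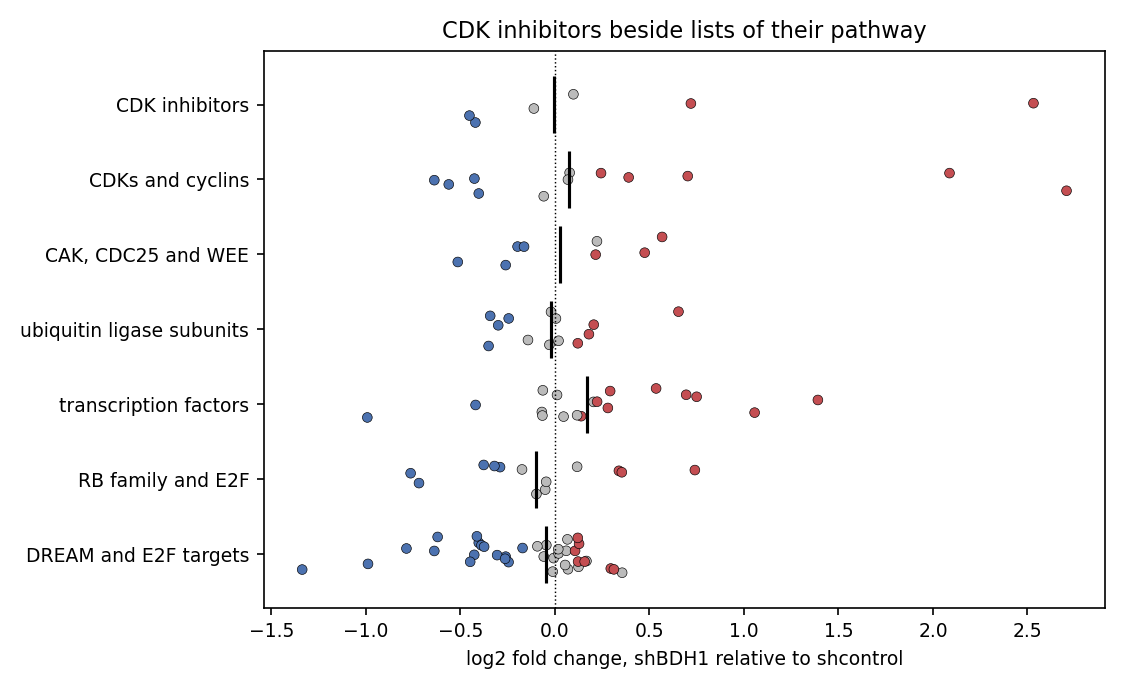
Log2 fold change in shBDH1 relative to shcontrol (horizontal axis) of each tested gene of the CDK inhibitors and of the 6 other lists; red points passed the limma test higher, blue lower, grey did not pass, and vertical bars are list medians. CDKN1A at 2.53 is exceeded in these lists by the cyclin CCNA1 alone, at 2.71, whose mean in shcontrol was 18.5 normalized read counts.

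No other gene of the table overlapped a CDK inhibitor. The nearest tested genes did not share one pattern with their members. RAB44, 10471 bases beyond CDKN1A, rose by 1.28 on the log2 scale (limma adjusted p = 1.9e-08), while SRSF3, 70860 bases away on the other side, fell by 0.37. KRI1, which lies 425 bases from CDKN2D on the same strand, rose by 0.28, and SLC44A2, 33398 bases away, by 0.48. FAF1, 482 bases from CDKN2C on the opposite strand, was at -0.09 (limma adjusted p = 0.23), and RNF11, 261638 bases away, rose by 0.54. CNIH1, 3342 bases from CDKN3, was at -0.12 and BMP4 at 0.33, neither past the test. KCNQ1, a neighbour of CDKN1C in an imprinted region, rose by 0.68, whereas SLC22A18AS (0.31) beside CDKN1C and APOLD1 (-0.01) and GPR19 (0.38) beside CDKN1B did not pass.

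The genes most like each member were those of a mean within 2-fold whose log2 profile over the 4 libraries, centred on its own mean, lay nearest. For CDKN1A these were KRT73, a keratin (distance 0.22), and CST7, a protease inhibitor of cytotoxic cells (0.35). KRT73 had means of 34.3 normalized read counts in shcontrol and 209.9 in shBDH1, and its 4 libraries stood in the same order as those of CDKN1A. For CDKN2D they were AC097534.1 and the surface protein gene CD72, for CDKN2C LIX1-AS1 and ZNF330, and for CDKN3 ZNF76 and SLC39A13. For CDKN1B they were ERH and SHC4, and for CDKN1C CCDC116 and HORMAD2-AS1. The candidates numbered from 2943 for CDKN1B to 5999 for CDKN3, and 1 contrast over 4 libraries sets most of such a profile.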

How the data were processed

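Per the submitters' processing notes, reads were aligned to hg38 with HISAT2 2.2.1 after FastQC 0.11.9; not given in the sources used here are the counter, the annotation, the strand setting and the scaling tool. The deposited values are a normalized signal: read counts that had been divided by 1 size factor per library (0.9739 to 1.0174). All values of each library were whole multiples of 1 step (100% within 0.01 reads), so whole reads were recovered. Values were tested with limma 3.58.1 (R 4.3.3) on log2(value + 1) with a mean-variance trend, over genes with a mean of at least 10, and Benjamini-Hochberg adjustment over all of them; fold changes on this scale understate changes of low genes. Other fits used edgeR 4.0.16, DESeq2 1.42.0 and limma-voom on the recovered reads. The fits were also run on simulated data with few changed genes and the same relative spread for all genes. That setting is unlike these data, so it does not measure the error of the fits here. Levels per length use the union of exons in GENCODE 29; promoters are RefSeq's. 1 list and 1 gene of another list are not reported here. Members and lists were chosen with earlier results of these data known. Named were the members, BDH1, MYC and CDK4, up to 4 genes of smallest p per pathway list, nearest genes and the 2 most alike. No label states whether replicate libraries derive from separate cultures. The p-values then reflect only the spread among these libraries, which may be technical. The limma SE, interval and p of a gene rest mostly on the spread of genes of like mean. Each gene's own spread has 2 degrees of freedom, and the part shared over genes at least 25.8. Figures were drawn with matplotlib 3.10.9.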

Additional observations from a re-analysis of the deposited data

How the results depend on the processing

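The calls and directions of CDKN1A, CDKN2C, CDKN2D and CDKN3 held under all 15 settings tried, with log2 fold changes of 2.23 to 2.83, -0.49 to -0.35, 0.62 to 0.82 and -0.52 to -0.39. CDKN1B passed the test with library totals (0.12) and with upper-quartile scaling (0.12). CDKN1C, never called, ranged from -0.26 to 0.04 when each library was left out (the lone library is then assumed to vary like the other group), with 0.036 without replicate 1 of shcontrol and 0.039 without replicate 2 of shBDH1. Over all genes, 3038 to 4209 were called higher and 3046 to 4217 lower. For 25 other named genes, 375 of 375 values kept their direction. All of these genes but BDH1 had been named for the smallest p of their list in these same libraries. Their stability was therefore likely from the outset. The labels number the replicates alike and do not say whether equal numbers form pairs. Deviations of replicate 1 from its group mean were nearly uncorrelated between the groups (0.0013). That value cannot show how the libraries were prepared. A block for the replicate number cannot move a fold change in this balanced design (CDKN1A 2.53, CDKN2D 0.72). With that block no member's call changed, and 4108 genes were called higher and 4217 lower. Of the list counts under these settings 205 stayed within 1.5 times of their value and 5 did not. Low reads limit CDKN1A and CDKN1C.

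With the longest transcript as the length, levels in shcontrol and shBDH1 were 0.660 and 3.91 for CDKN1A, 57.5 and 62.6 for CDKN1B, 2.60 and 2.45 for CDKN1C, 28.8 and 21.9 for CDKN2C, and 44.3 and 32.9 for CDKN3. The shares became 39.7% and 44.0% for CDKN1B, 19.9% in shcontrol for CDKN2C, 7.63% and 13.0% for CDKN2D, and 30.6% and 23.1% for CDKN3. With no division by length they were 49.9% and 54.5% for CDKN1B, 27.3% and 20.8% for CDKN2C, 5.14% and 8.64% for CDKN2D, and 15.5% and 11.5% for CDKN3.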

Other observations

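Kinases and cyclins taken by name were also divided. Of 18 tested protein-coding genes named as a CDK, 7 rose and 7 fell (limma adjusted p under 0.05). Of 25 named as a cyclin, 8 rose and 9 fell. The CDKs and cyclins that the inhibitors bind are among them. Over all genes tested 20.3% rose and 20.8% fell. Of the genes with a mean within 2-fold of that of CDKN3, 54.4% changed in either direction. Over the members this share ran from 30.5% for CDKN1C to 65.2% for CDKN1B. Among the transcriptional CDKs, CDK9 rose by 0.50 on the log2 scale and CDK8 by 0.41, while CDK7 fell by 0.51. CDK5, a kinase best known from neurons, fell from 879 ± 113 to 483 ± 21.7 normalized read counts (SD, n = 2 each). CCNF, which marks proteins for destruction in G2, and CCNG2, a cyclin linked to arrest, fell by 0.72 and 0.88.

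Genes with names like those of the inhibitors gave other values. CDK2AP2, related to a CDK2-binding protein, fell by 0.53 on the log2 scale, while CDK2AP1 (0.11), CDKN2AIP (0.05) and CDKN2AIPNL (-0.18) did not pass the test. All genes in these paragraphs were chosen after their values were seen.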
